A study of Homo sapiens with 6 samples.

Results

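The genes described here are the 8 human genes with a cyclin-dependent kinase (CDK) inhibitor symbol: CDKN1A, CDKN1B and CDKN1C of the CIP/KIP family, CDKN2A, CDKN2B, CDKN2C and CDKN2D of the INK4 family, and CDKN3. They were chosen by gene symbol, with earlier results of these data known, as 8 of the 58735 genes in the count table. All 8 passed the filter on low counts that left 13772 genes for testing. The libraries, in 2 groups of 3, came from Ovcar8, a long-established line grown from a high-grade serous carcinoma of the ovary. The serum-starved cells spent 48 h without fetal bovine serum (FBS), and the FBS cells, the untreated controls, spent the same time in RPMI-1640 medium with 5% FBS. All libraries came from this single line, and nothing in the labels says whether the 3 libraries of a group grew apart, so every p-value is set against the spread among these libraries, which may be technical. The series title names quiescence, and these genes were compared to see whether the transcripts of the brakes on the cell cycle differ without serum.

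CDKs drive the cell cycle when bound to cyclins, and the 2 inhibitor families act on them in different ways. The CIP/KIP proteins p21, p27 and p57 bind complexes of cyclin and CDK, above all those of CDK2 with cyclins E and A. The INK4 proteins p16, p15, p18 and p19 bind CDK4 and CDK6 and keep them from the D cyclins, so that the retinoblastoma protein RB1 stays active and holds back genes of DNA replication. In many cell types p27 is set mainly by translation and by protein breakdown, and p15 is known as a target of TGF-beta signalling. RNA levels therefore need not follow the levels of the proteins.

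The deposited counts are per gene, so transcripts with different starts are summed. This matters most for CDKN2A, which encodes p16 from its downstream start and the unrelated protein ARF from its upstream start. GENCODE 29 lists 14 CDKN2A transcripts, and their counts cannot be told apart here. The 250 bases before both RefSeq start sites are shown to make the separate origins visible, with those of CDKN1A and CDKN2B, whose levels varied together over the libraries. All are from GRCh38.p14, read 5′ to 3′ on the gene's own strand, with GC boxes (GGGCGG or its reverse complement, the letters of an SP1 motif) in capitals; adjoining matches run together.
CDKN1A, chr6:36678464-36678713, plus strand: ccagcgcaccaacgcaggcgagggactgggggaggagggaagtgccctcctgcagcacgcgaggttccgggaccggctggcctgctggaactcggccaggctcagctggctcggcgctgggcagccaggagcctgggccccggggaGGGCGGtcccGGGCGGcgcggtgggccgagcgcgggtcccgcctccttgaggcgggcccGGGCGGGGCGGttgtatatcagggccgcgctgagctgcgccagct
CDKN2B, chr9:22009306-22009555, minus strand: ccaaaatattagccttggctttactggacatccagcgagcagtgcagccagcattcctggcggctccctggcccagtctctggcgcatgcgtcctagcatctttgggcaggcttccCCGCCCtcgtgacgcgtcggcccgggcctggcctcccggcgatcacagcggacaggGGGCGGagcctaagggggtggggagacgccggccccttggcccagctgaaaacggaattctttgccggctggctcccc
CDKN2A, upstream start (ARF), chr9:21995325-21995574, minus strand: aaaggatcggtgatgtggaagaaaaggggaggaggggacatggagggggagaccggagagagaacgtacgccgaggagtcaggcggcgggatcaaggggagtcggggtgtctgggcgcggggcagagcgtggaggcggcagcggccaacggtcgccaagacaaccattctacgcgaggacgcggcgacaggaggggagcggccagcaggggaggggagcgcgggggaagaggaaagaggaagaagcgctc
CDKN2A, downstream start (p16), chr9:21974858-21975107, minus strand: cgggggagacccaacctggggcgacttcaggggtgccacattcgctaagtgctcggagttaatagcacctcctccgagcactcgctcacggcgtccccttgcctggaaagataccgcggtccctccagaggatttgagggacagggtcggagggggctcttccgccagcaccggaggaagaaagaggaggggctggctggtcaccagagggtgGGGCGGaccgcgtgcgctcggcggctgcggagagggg

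The CDKN1A window held 4 GC boxes, the CDKN2B window 2, the p16 window 1 and the ARF window 0. Of 35116 RefSeq promoter windows of the same length, 42.6% held at least 1. The other motifs searched on both strands were the CCAAT box (CCAAT, in 32% of windows), the cell cycle motif CHR (TTTGAA, 13.3%), the E-box (CACGTG, 6.34%) and a FOXO motif (GTAAACA, 2.98%). None of these other motifs was found in the 4 windows shown. The CDKN3 window held 1 CHR and 2 CCAAT boxes, the CDKN1B window 2 CCAAT boxes and 1 GC box, and the CDKN2D window 1 CCAAT box and 2 GC boxes. CDKN2C had 3 windows, with 1 E-box in the first, 5 GC boxes in the second and 1 CCAAT box, 1 GC box and 1 E-box in the third. A match or its lack describes only the letters of these windows. RefSeq entries were found for 7 of the 8 genes, all except CDKN1C.

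The libraries held 16379416 to 19558484 counts. Serum-starved replicate 3 stood apart: among the genes tested, its median log2 deviation from the mean of the libraries was -0.53 in the shortest and 0.47 in the longest 10% of genes, while the other libraries lay between -0.18 and 0.21 there. GC content also moved with single libraries. The 10% of genes with the highest transcript GC content deviated by 0.48 in serum-starved replicate 1 and by -0.47 in serum-starved replicate 3. The 10% with the lowest deviated by 0.79 in FBS replicate 1 and by -0.70 in serum-starved replicate 1. For the 8 genes, fold changes are also given without the libraries that moved them most or with a correction for GC content and length. Of 13 markers of ovarian carcinoma, 4 had no count in any library, among them MUC16. Including these, 6 stayed under 1 CPM (counts scaled to library size) in all libraries. The keratin KRT8, by contrast, averaged 6090 CPM in serum-starved and 6130 CPM in FBS cells. The transcription factor PAX8 averaged 78.7 and 64.3 CPM in the same groups. Of 14 markers of other cell types, 4 had no count in any library and 9 stayed under 1 CPM in all; their summed level was 807 to 868 CPM in serum-starved and 335 to 603 CPM in FBS libraries, nearly all of it COL1A1 and PDGFRB, and their part in the results was not tested.

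CDKN2A was by far the most abundant of the 8 transcripts per unit of length. On the FPKM scale (fragments per kilobase of gene, scaled to depth, as deposited by the authors) it averaged 147 ± 75.8 in serum-starved and 200 ± 17.04 in FBS cells (SD, n = 3 each). Over all libraries that placed it above 98.1% of the genes tested. Its lowest library, at 68.0 FPKM, was above the highest CDKN1A library, at 33.4 FPKM. The order of mean FPKM went on with CDKN1A (20.1), CDKN2C (16.5), CDKN3 (9.44), CDKN2D (8.94), CDKN1B (6.16), CDKN1C (3.42) and CDKN2B (1.09). CDKN1C exceeded CDKN2B in 6 of 6 libraries. Neighbours between those ends did not keep 1 order in every library. CDKN1A exceeded CDKN2C in all 3 serum-starved libraries and in none of the 3 FBS libraries, CDKN2C exceeded CDKN3 in 5 of 6, CDKN3 exceeded CDKN2D in 4 of 6, CDKN2D exceeded CDKN1B in 5 of 6 and CDKN1B exceeded CDKN1C in 5 of 6. CDKN2A made up 56.5% to 73.6% of the summed FPKM of the 8 genes in serum-starved and 73.5% to 77.6% in FBS libraries.

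**Figure D1:**
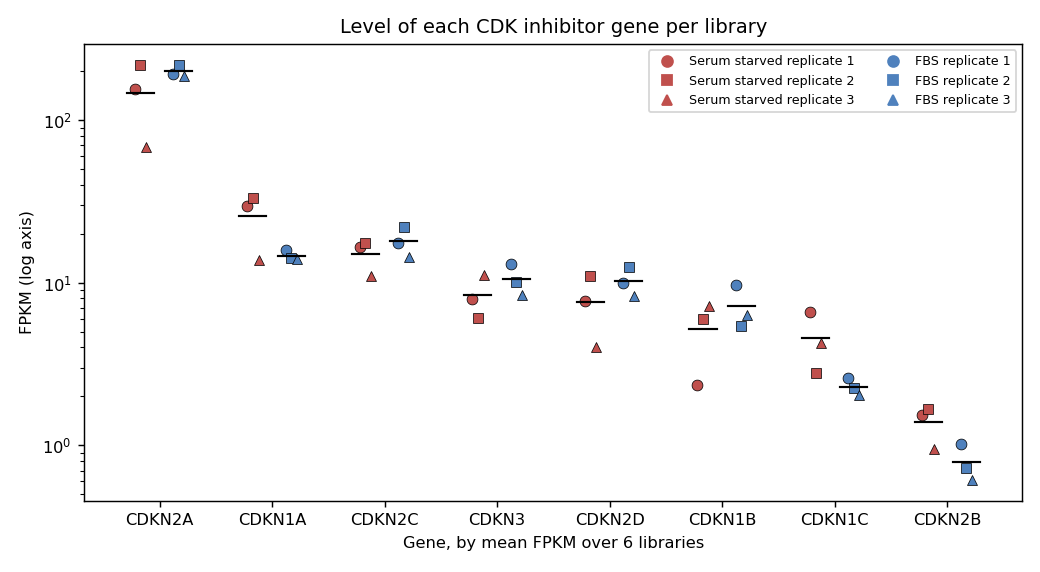
FPKM (log axis) of each CDK inhibitor gene in each library, serum-starved libraries in red left of FBS libraries in blue, with the group mean as a bar and genes ordered by mean FPKM. CDKN2A lies between 68.0 and 219 FPKM, above every value of the other 7 genes.

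CDKN1A encodes p21, an inhibitor of CDK2 complexes (ENSG00000124762, chromosome 6, 36676460 to 36687339, GRCh38, plus strand). Its level was 92.2, 105 and 43.3 CPM in serum-starved replicates 1, 2 and 3, against 50.05, 44.1 and 43.5 CPM in FBS replicates 1, 2 and 3. Serum-starved replicates 1 and 2 lay well above all FBS libraries, and serum-starved replicate 3 lay at their lower edge, so the groups overlapped. The group means were 80.1 ± 32.5 CPM in serum-starved and 45.9 ± 3.63 CPM in FBS cells (SD, n = 3 each), and the log2 fold change was 0.80 (standard error, SE, 0.33). In bulk RNA, a change in the number of cells with the transcript and a change in its level per cell cannot be told apart. The edgeR adjusted p was 0.397, and the unadjusted 95% interval of the log2 fold change ran from 0.12 to 1.49. Leaving out serum-starved replicate 2 gave a log2 fold change of 0.56, at an edgeR adjusted p of 0.697, which did not pass. Without serum-starved replicate 3, CDKN1A was called higher in serum-starved cells, at a log2 fold change of 1.10 (SE 0.24, edgeR adjusted p = 0.0183). When that fit was also corrected for GC content and length, a combination added after seeing the data, the log2 fold change was 0.83 and the edgeR adjusted p 0.0885. With the correction and all 6 libraries, log2 CPM was 6.17, 6.57 and 5.91 in serum-starved replicates 1, 2 and 3, against 5.87, 5.32 and 5.40 in FBS replicates 1, 2 and 3. The corrected groups did not overlap, though serum-starved replicate 3 was only just above FBS replicate 1, and the edgeR adjusted p was 0.157.

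CDKN1B encodes p27, the inhibitor most often tied to quiescence (ENSG00000111276, chromosome 12, 12715058 to 12722371, plus strand). It was at 6.73, 17.2 and 20.8 CPM in serum-starved replicates 1, 2 and 3, against 28.5, 15.4 and 18.3 CPM in FBS replicates 1, 2 and 3. The groups overlapped, with serum-starved replicate 1 the lowest and FBS replicate 1 the highest of the 6. These are the libraries in which genes of low GC content deviated most, and CDKN1B transcripts had a mean GC content of 46.0%. After the correction for GC content and length these 2 libraries were at log2 CPM 3.19 and 4.51. The group means were 14.9 ± 7.30 CPM in serum-starved and 20.7 ± 6.87 CPM in FBS cells (SD, n = 3 each). The log2 fold change was -0.47 (SE 0.40, edgeR adjusted p = 0.74), -0.79 without serum-starved replicate 3 and -0.25 with the correction. It was -0.11 without serum-starved replicate 1 and -0.18 without FBS replicate 1. The unadjusted 95% interval ran from -1.32 to 0.37.

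CDKN1C, an imprinted gene, encodes p57, a CDK inhibitor with a part in development and stem cell quiescence (ENSG00000129757, chromosome 11, 2883213 to 2885773, minus strand). It held 246, 130 and 246 counts in serum-starved replicates 1, 2 and 3, against 132, 95 and 79 counts in FBS replicates 1, 2 and 3. The CPM were 16.7, 7.14 and 10.8 in the serum-starved libraries, against 6.71, 5.66 and 5.13 in the FBS libraries. It was the only one of the 8 genes whose CPM did not overlap between groups, though serum-starved replicate 2 stood only just above FBS replicate 1. The exact Poisson 95% intervals of these 2 libraries, which cover counting error only, were 5.96 to 8.47 and 5.61 to 7.95 CPM. The means were 11.6 ± 4.83 CPM in serum-starved and 5.83 ± 0.80 CPM in FBS cells (SD, n = 3 each). The log2 fold change of 0.98 (SE 0.40) did not pass, at an edgeR adjusted p of 0.403, nor did those of 0.64 without serum-starved replicate 1, its highest library (edgeR adjusted p = 0.552), 1.02 without serum-starved replicate 3 (edgeR adjusted p = 0.195) or 1.01 after correction for GC content and length (0.179). After that correction the groups overlapped, since serum-starved replicate 2 (log2 CPM 2.71) was below FBS replicate 1 (2.97).

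The 3 CIP/KIP genes summed to 38.5, 42.2 and 25.3 FPKM in serum-starved replicates 1, 2 and 3, against 28.1, 21.9 and 22.4 FPKM in FBS replicates 1, 2 and 3. CDKN1A was the largest share of that sum in every library, at 76.8%, 79.3% and 54.7% in serum-starved replicates 1, 2 and 3, against 56.1%, 65.1% and 62.5% in FBS replicates 1, 2 and 3. The ratio of CDKN1A to CDKN1B on the FPKM scale was 12.6, 5.62 and 1.92 in the serum-starved libraries, against 1.62, 2.64 and 2.19 in the FBS libraries. On this uncorrected scale serum-starved replicate 3 lay within the FBS range and the other 2 serum-starved libraries above it. After the correction for GC content and length all 3 serum-starved libraries lay above the FBS range of this ratio, serum-starved replicate 3 only just. Its corrected log2 CPM was 5.91 for CDKN1A and 4.36 for CDKN1B, against 5.32 and 3.93 in FBS replicate 2. The ratio was not tested.

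**Figure D2:**
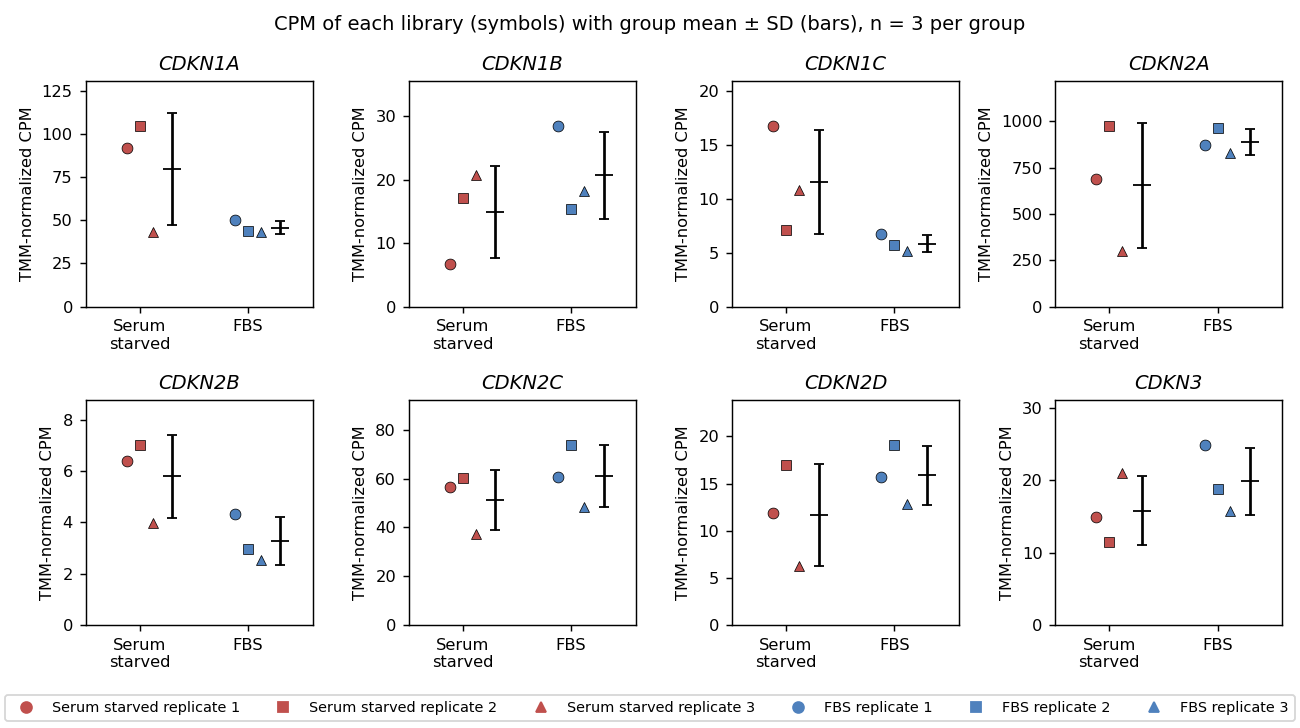
TMM-normalized CPM of each gene in each library (symbols) with the group mean ± SD (bars, n = 3 per group), serum-starved libraries in red left of FBS libraries in blue, each panel starting at 0. Serum-starved replicate 3 (red triangle) is the lowest of its group for CDKN1A, CDKN2A, CDKN2B, CDKN2C and CDKN2D and the highest for CDKN1B and CDKN3.

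CDKN2A (ENSG00000147889, chromosome 9, 21967753 to 21995301, minus strand) was at 688, 974 and 302 CPM in serum-starved replicates 1, 2 and 3, against 870, 964 and 826 CPM in FBS replicates 1, 2 and 3. The groups overlapped because serum-starved replicate 2 was the highest library of all, while serum-starved replicate 3 was far below the other 5. The log2 fold change was -0.44 (SE 0.37, edgeR adjusted p = 0.741). Leaving out serum-starved replicate 3 gave -0.10, and leaving out serum-starved replicate 2 gave -0.85. With the correction for GC content and length it was -0.63 (edgeR adjusted p = 0.271). The serum-starved group varied by 51.5% of its mean and the FBS group by 7.93%.

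CDKN2B encodes p15 and lies 7602 bases from CDKN2A on the same strand (ENSG00000147883, chromosome 9, 22002903 to 22009363). It was the lowest of the 8 genes, with 94, 128 and 90 counts in serum-starved replicates 1, 2 and 3, against 85, 50 and 39 counts in FBS replicates 1, 2 and 3. Those counts correspond to 6.39, 7.03 and 3.96 CPM in the serum-starved libraries, against 4.32, 2.98 and 2.53 CPM in the FBS libraries. Serum-starved replicates 1 and 2 were above all FBS libraries, and serum-starved replicate 3 was below FBS replicate 1. The log2 fold change was 0.81 (SE 0.45, edgeR adjusted p = 0.546) and 1.03 without serum-starved replicate 3 (edgeR adjusted p = 0.24). It was 1.06 without FBS replicate 1 (edgeR adjusted p = 0.997) and 0.65 without serum-starved replicate 2 (edgeR adjusted p = 0.779). The value of 0.997 was shared by all 8 genes in that fit. The unadjusted edgeR p of CDKN2B was 0.0515 there, against 0.0858 with all libraries. With the correction for GC content and length it was also 0.65 (edgeR adjusted p = 0.42). The unadjusted 95% interval with all libraries ran from -0.13 to 1.76. Both genes overlap the antisense RNA CDKN2B-AS1, and whether counting used strand is not given in the sources used here. CDKN2B-AS1 held 0, 3 and 9 counts in serum-starved replicates 1, 2 and 3, against 12, 5 and 10 counts in FBS replicates 1, 2 and 3.

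CDKN2C encodes p18 (ENSG00000123080, chromosome 1, 50960745 to 50974633, plus strand). It was at 56.5, 60.1 and 37.4 CPM in serum-starved replicates 1, 2 and 3, against 60.8, 74.0 and 48.6 CPM in FBS replicates 1, 2 and 3. The groups overlapped, and the log2 fold change was -0.25 (SE 0.30, edgeR adjusted p = 0.823). Leaving out 1 library moved it to -0.07 (serum-starved replicate 3), -0.08 (FBS replicate 2) or -0.39 (serum-starved replicate 2, or FBS replicate 3) and the GC and length correction to -0.30. CDKN2D encodes p19, the INK4 protein unrelated to ARF (ENSG00000129355, chromosome 19, 10566462 to 10569059, minus strand). It was at 11.8, 17.01 and 6.21 CPM in serum-starved replicates 1, 2 and 3, against 15.6, 19.1 and 12.8 CPM in FBS replicates 1, 2 and 3. Here too serum-starved replicate 3 was the lowest library, and the log2 fold change was -0.44 (SE 0.39, edgeR adjusted p = 0.747). It was -0.14 without that library, and leaving out serum-starved replicate 2 gave -0.82 and FBS replicate 2 -0.28. Across the 6 libraries, which share depth, GC content and length trends, log2 CPM of CDKN2D correlated at 0.975 with CDKN2A and at 0.942 with CDKN2C (Pearson). CDKN2B correlated at 0.0265 with CDKN2A, its neighbour, and at 0.913 with CDKN1A. These correlations are descriptions of 6 libraries and hold both groups together.

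CDKN3 differs from the other 7 in kind: its product is a dual-specificity phosphatase that removes the activating phosphate from CDK2, and its transcript peaks late in the cell cycle. The gene (ENSG00000100526, chromosome 14, 54396849 to 54420218, plus strand) was at 15.0, 11.5 and 20.9 CPM in serum-starved replicates 1, 2 and 3, against 24.9, 18.8 and 15.7 CPM in FBS replicates 1, 2 and 3. The groups overlapped, with the highest serum-starved library above FBS replicates 2 and 3. The log2 fold change was -0.33 (SE 0.34, edgeR adjusted p = 0.793) and -0.59 without serum-starved replicate 3 (edgeR adjusted p = 0.369). It was -0.15 without serum-starved replicate 2 and -0.14 without FBS replicate 1. It turned to 0.30 with the correction for GC content and length (edgeR adjusted p = 0.619). CDKN3 transcripts had the lowest mean GC content of the 8 genes, 42.4%, and the correction moved serum-starved replicate 1 from log2 CPM 3.91 to 4.58 and FBS replicate 1 from 4.64 to 3.93.

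Of the 8 genes, 0 were called by edgeR (quasi-likelihood test, Benjamini-Hochberg adjustment over all genes tested), against 0.283% of those genes. DESeq2 and limma-voom also called 0 of the 8. At an unadjusted p under 0.05 there were 2 in the main edgeR fit, CDKN1A and CDKN1C, both higher in serum-starved cells, against 10.4% of all genes. With the correction for GC content and length CDKN2A, which was lower, joined them. Without serum-starved replicate 3, CDKN1B, which was lower, and CDKN2B, which was higher, joined them. The share of all genes at that limit was not counted in those fits. The groups did not overlap for 1 gene, CDKN1C, against 17.7% of all genes, with 10% of all genes higher and 7.65% lower. The fold change was above 0 for 3 of the 8 genes, CDKN1A, CDKN1C and CDKN2B, against 48.5% of all genes. The median log2 fold change of the 8 was -0.29, against -0.02 for all genes tested, and -0.08 without serum-starved replicate 3. With the correction for GC content and length the median was 0.02, against 0.01 for all genes tested. CDKN3, at 0.30, was then also above 0. Without that library, 1 of the 8 (CDKN1A) was called, against 1.81% of 14179 genes; it was higher, as were 0.875% of all genes, and 0 were lower, against 0.938%. With the correction for GC content and length 0 of the 8 were called, against 0.777% of all genes. With so few libraries a gene that did not pass may still have changed.

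**Figure D3:**
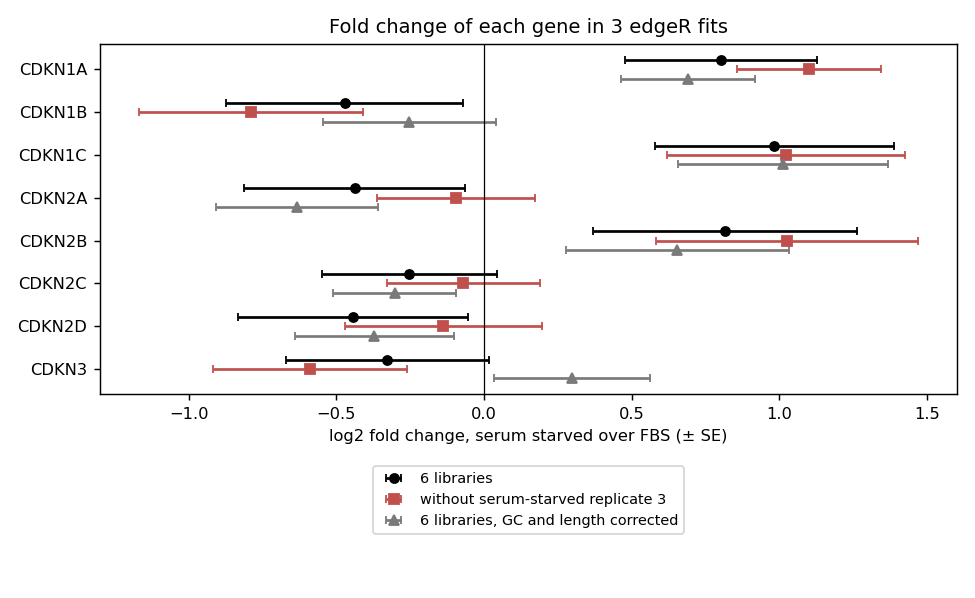
Log2 fold change (serum starved over FBS, ± SE) of each gene in the edgeR fit with 6 libraries (black), without serum-starved replicate 3 (red) and with the GC and length correction (grey). CDKN1A, CDKN1C and CDKN2B lie above 0 in all 3 fits, and CDKN3 lies at -0.33, -0.59 and 0.30.

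CDK4 and CDK6 are the targets of the INK4 proteins and the pocket proteins are the substrates of those kinases. Their transcripts differed greatly in level per length. CDK4 averaged 92.0 ± 34.3 FPKM in serum-starved and 120 ± 23.0 FPKM in FBS cells (SD, n = 3 each). CDK6 averaged 0.56 and 0.951 FPKM in the same groups, so CDK4 was the dominant transcript of the 2 kinases. RB1, the main brake downstream of p16, held 13, 7 and 30 counts in serum-starved replicates 1, 2 and 3, against 38, 3 and 3 counts in FBS replicates 1, 2 and 3. Its FPKM of 0.0273 to 0.288 placed it above only 3.2% of the genes tested, whereas CDKN2A was above 98.1%. The highest RB1 value was that of FBS replicate 1, and this scale holds no correction for GC content. The related pocket proteins were higher, RBL2 (p130) at 2.08 FPKM in serum-starved and 1.77 FPKM in FBS cells and RBL1 (p107) at 0.581 and 0.735 FPKM in the same groups. None of these 5 genes passed the test between groups (edgeR adjusted p from 0.547 for CDK6 to 0.974 for RB1). The RB1 protein was not measured here.

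**Figure D4:**
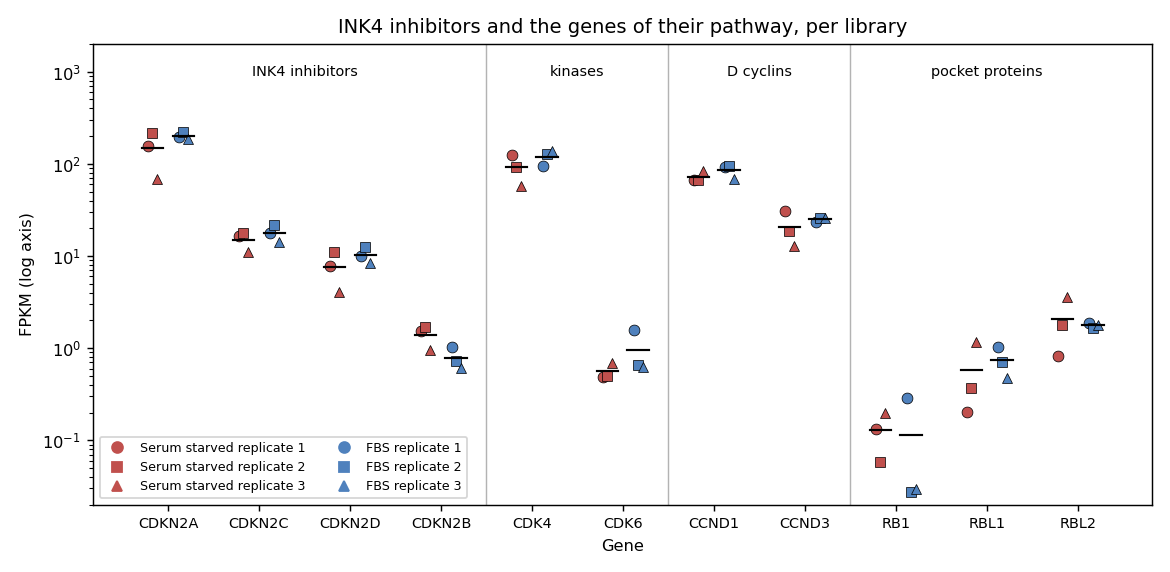
FPKM (log axis) per library of the INK4 genes and of CDK4, CDK6, CCND1, CCND3 and the pocket proteins, serum-starved libraries in red left of FBS libraries in blue, with group means as bars. RB1 lies between 0.0273 and 0.288 FPKM, below every other gene shown in the mean (CCND2, at 0 in all libraries, is not shown), and CDKN2A and CDK4 are near the top.

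Among 15 tested kinases, cyclins and pocket proteins, edgeR and limma-voom called 0, against 0.283% of all genes in edgeR. At an unadjusted p under 0.05 there were 2, against 10.4% of all genes, a share near that background. The fold change was above 0 for 2 of the 15, against 48.5% of all genes, and the median log2 fold change was -0.26, against -0.02 for all genes. CDK1, the kinase of mitosis, was at 7.48, 9.50 and 11.3 CPM in serum-starved replicates 1, 2 and 3, against 43.4, 26.6 and 16.8 CPM in FBS replicates 1, 2 and 3. Its groups did not overlap, and the log2 fold change of -1.62 (SE 0.38) did not pass (edgeR adjusted p = 0.0896). It passed without serum-starved replicate 3 (-1.77, edgeR adjusted p = 0.0113), while corrected for GC content and length its change was -0.83 (edgeR adjusted p = 0.117). DESeq2, run without the filter on low counts, called 1 gene of this list lower, against 40 lower over 23462 genes. That larger set holds genes below the filter, which the list does not, so the 2 shares are not like for like. CCNE1, the cyclin E1 partner of CDK2 that p21 and p27 inhibit, averaged 24.3 ± 4.26 CPM in serum-starved and 38.7 ± 2.96 CPM in FBS cells, also without overlap (edgeR adjusted p = 0.431). CDK2 was at 122 ± 15.4 and 132 ± 9.34 CPM in the same groups (0.926), CCNA2 at 83.8 ± 38.5 and 96.1 ± 12.1 CPM (0.887) and CCND1, cyclin D1, at 358 ± 47.1 and 423 ± 73.0 CPM (0.832; SD, n = 3 each, edgeR adjusted p throughout).

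Of 15 tested genes that degrade or export the CIP/KIP proteins, 0 were called by edgeR, DESeq2 or limma-voom, against 0.283% of all genes in edgeR, and 1 had an unadjusted p under 0.05, against 10.4% of all genes. That gene was CDC20, which directs p21 to the anaphase-promoting complex, at 519 CPM in serum-starved and 875 CPM in FBS cells (edgeR adjusted p = 0.46). SKP2, the receptor that marks p27 for breakdown, averaged 26.8 ± 11.4 CPM in serum-starved and 35.4 ± 9.25 CPM in FBS cells (edgeR adjusted p = 0.741). CUL1, the scaffold of the SKP2 ligase, averaged 29.5 ± 10.5 and 46.3 ± 6.91 CPM in the same groups (edgeR adjusted p = 0.499).

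Among 27 tested regulators of transcription of these inhibitors, edgeR called 2 lower and 0 higher, and 25 did not pass. Over all genes, 0.0436% were called lower and 0.24% higher. The list was chosen with earlier results of these data known, so setting its counts beside those shares is a description only. Of the list, 7 had an unadjusted p under 0.05, against 10.4% of all genes. DESeq2 called 2 lower and 1 higher, against 40 lower and 114 higher over 23462 genes, a set that includes genes below the filter. In limma-voom, 2 were called lower and 0 higher, against 7 lower and 31 higher over 13772 genes. The 2 genes that edgeR called lower were ID genes, whose products block basic helix-loop-helix factors that act on CDKN1A and CDKN2A. ID1 was at 25.4, 37.5 and 17.4 CPM in serum-starved replicates 1, 2 and 3, against 165, 172 and 116 CPM in FBS replicates 1, 2 and 3 (edgeR adjusted p = 0.00186). ID3 was at 3.06, 2.80 and 0.793 CPM in the serum-starved libraries, against 53.2, 36.6 and 41.7 CPM in the FBS libraries (edgeR adjusted p = 0.000308). SMAD3, the TGF-beta effector that acts on CDKN2B and CDKN1A, was at 49.3, 57.2 and 70.6 CPM in serum-starved replicates 1, 2 and 3, against 15.5, 30.6 and 23.9 CPM in FBS replicates 1, 2 and 3. Its groups did not overlap and its log2 fold change of 1.34 did not pass (edgeR adjusted p = 0.0983); without serum-starved replicate 3 it passed at 1.19 (0.0308). Without that library edgeR called 2 genes of this list higher, SMAD3 and the serum-induced factor EGR1 (1.49, 0.0207), and 2 lower, against 0.875% and 0.938% of 14179 genes. With all libraries EGR1 was at 1.27 (edgeR adjusted p = 0.256). With all libraries and the correction for GC content and length neither gene passed. SMAD3 was then at 1.11 (edgeR adjusted p = 0.05003) and EGR1 at 1.21 (0.0918). SMAD3 and EGR1 were named after their values were seen.

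Of 26 mitosis and G2/M genes, the group to whose timing CDKN3 belongs, edgeR called 1 lower and 0 higher, and 25 did not pass. Over all genes, 0.0436% were called lower and 0.24% higher. This list too was chosen with earlier results of these data known, so the comparison is a description only. DESeq2 called 3 lower, against 40 over 23462 genes, a set that includes genes below the filter. In limma-voom 1 was called lower, against 7 over 13772 genes, with 0 of the list higher in both. At an unadjusted p under 0.05 there were 9, against 10.4% of all genes. The median log2 fold change was -0.50, and -0.22 with the GC and length correction, and CDKN3 was at -0.33 and 0.30 in the same fits. Without serum-starved replicate 3, edgeR called 4 genes of this list lower, CDK1 among them, against 0.938% of 14179 genes. The lists overlap: CDK1, CCNA2, CCNB1 and CCNB2 are also in the list of kinases and cyclins, and CDC20 in that of degradation and export. The gene called with all libraries was ECT2, an exchange factor of cytokinesis, at 10.8 ± 2.79 CPM in serum-starved and 36.2 ± 10.1 CPM in FBS cells (SD, n = 3 each; edgeR adjusted p = 0.031). MKI67, which encodes the proliferation antigen Ki-67, was at 54.4, 43.7 and 111 CPM in serum-starved replicates 1, 2 and 3, against 38.4, 43.1 and 40.6 CPM in FBS replicates 1, 2 and 3 (edgeR adjusted p = 0.426). With all libraries the log2 fold change of MKI67 was 0.78, and leaving out its highest, serum-starved replicate 3, gave 0.27 (edgeR adjusted p = 0.642).

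Genes next to the members on the chromosome gave no call in the test. MTAP, the nearest protein-coding gene that flanks CDKN2A on the side away from CDKN2B, had 118, 188 and 412 counts in serum-starved replicates 1, 2 and 3, against 424, 257 and 186 counts in FBS replicates 1, 2 and 3 (log2 fold change -0.42, edgeR adjusted p = 0.756). FAF1, which lies 482 bases from CDKN2C on the opposite strand, had a log2 fold change of 0.37 (0.702), and KRI1, 425 bases from CDKN2D, of -0.11 (0.93). SRSF3 near CDKN1A was at -0.38 (0.724), AP1M2 near CDKN2D at 0.26 (0.867) and CNIH1 near CDKN3 at -0.22 (0.836). APOLD1, 3546 bases from CDKN1B, was at 0.92 (0.68), GPR19, on its other side, at 0.11 (0.97), DMRTA1 near CDKN2B at 1.85 (0.587) and BMP4 near CDKN3 at 0.24 (0.945; edgeR adjusted p throughout). KCNQ1 and SLC22A18AS, which flank CDKN1C, were below the filter, with at most 17 and 14 counts in a library, as were RAB44 and C1orf185, with 0 counts in all libraries. DINOL, which overlaps CDKN1A on the opposite strand, had 0 counts in all 6 libraries, as did AL359922.1, which overlaps CDKN2A and CDKN2B. AC008115.3, within CDKN1B on the same strand, had at most 7 counts in a library. KCNQ1OT1, the antisense RNA of the imprinted CDKN1C domain, held 12, 19 and 30 counts in serum-starved replicates 1, 2 and 3, against 29, 3 and 0 counts in FBS replicates 1, 2 and 3 (edgeR adjusted p = 0.814).

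The transcripts whose log2 CPM over the 6 libraries was most like each member were taken from 9240 genes with a mean of at least 5 CPM, as a description only. They were PLEKHB1, SSBP3 and DCAF4 for CDKN1A (Pearson r from 0.9805 to 0.9918), KDELC2, SNX5 and SLC6A15 for CDKN1B (0.9965 to 0.9977), and AC010761.1, GGA2 and U2AF1L5 for CDKN1C (0.9835 to 0.9886). U2AF1L5 has a near-identical copy, so its counts are uncertain. In the INK4 family they were TMSB10, ATOX1 and NEDD8 for CDKN2A (0.9975 to 0.9986), TMEM40, MEI1 and PDCD7 for CDKN2B (0.9729 to 0.982), TOMM7, DHODH and HIRIP3 for CDKN2C (0.9771 to 0.9814) and CYSTM1, CYB5A and EIF4H for CDKN2D (0.9914 to 0.9968). For CDKN3 they were MCM8, RNF138 and MCM10 (0.9817 to 0.9917). With 6 points that share library trends in GC content and length, their meaning was not tested.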

How the data were processed

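RNA of 3 serum-starved and 3 FBS libraries of Ovcar8 cells was analysed, grouped by the sample titles. Per the labels' protocols, RNA was purified with Trizol and DNase, and NEBNext Ultra II libraries were sequenced on a NovaSeq. The submitters' processing notes name STAR 2.6.1, DESeq2 and the GRCh38 build, with no roles. How reads were counted, and whether by strand, is not stated in the labels. The deposited raw counts per gene, made by the authors, were the main measurement. The deposited FPKM, also made by the authors, equalled counts scaled by gene length and DESeq2 size factors (median ratio 1 in every library for genes above 20 counts), and served for levels between genes and as an alternative. All 58735 gene IDs and positions matched GENCODE 29.

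Counts were filtered with edgeR 4.0.16 (filterByExpr, minimum count 10, total 15), TMM-scaled and tested two-sided over all 13772 genes (quasi-likelihood, robust, threshold 0.05) in R 4.3.3. The biological coefficient of variation was 36.3%. SE is the log2 fold change over the square root of F. Alternatives used DESeq2 1.42.0 and limma 3.58.1; the GC and length correction used per-library splines (5 degrees of freedom) as offsets for 13768 genes with transcript GC content. The test was checked on simulated data. Named genes were the 8 members, fixed partners, all called list genes and, in lists with no called gene, the 2 of lowest p, the flanking genes and the 3 most similar per member; SMAD3, EGR1 and the cell markers lie outside this rule. One partner gene and one gene list are not reported here. The members and lists were chosen with earlier results of these data known. Replicate numbers were not used to pair the libraries in the main fit. Deviations from the group means correlated at -0.257, 0.0967 and -0.0818 for numbers 1, 2 and 3. GC and length trends of single libraries enter these values, so they cannot decide whether the libraries were paired. Intervals cover counting error only where named as Poisson, and PCR copies cannot be told from separate molecules.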

Additional observations from a re-analysis of the deposited data

How the results depend on the processing

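With edgeR's main settings 39 genes were called over all genes and 0 of the 8 CDK inhibitor genes. The count over all genes was 25 with total counts alone, 127 without a filter on low counts, 154 in DESeq2, 107 with the GC and length correction, 145 with the replicate block and that correction together, and 2 with limma on log2(FPKM + 1) without a filter. It was 43 with the replicate block alone, in which 0 of the 8 genes were called. Leaving out 1 library gave 4 (without FBS replicate 1) to 257 (without serum-starved replicate 3) over all genes and 0 to 1 of the 8; without serum-starved replicate 3 and with the correction, added after seeing the data, it was 93 over all genes and 0 of the 8. The cause of these shifts was not tested. CDKN1A was called in 1 of 18 alternatives (log2 fold change 0.56 to 1.10, adjusted p 0.0183 to 0.997), and the other 7 genes in none. Each of the genes other than CDKN3 kept its direction in all 18. CDKN3 turned to 0.30 with the correction, 0.26 with the correction and replicate block, and 0.18 with the correction and without serum-starved replicate 3. CDKN2B, with 39 to 128 counts in a library, and RB1, with 3 to 38, rest on few counts. The log2 fold change of RB1 was 0.15 (SE 0.96), and 0.61 with the correction.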
